A study of Mus musculus with 7 samples.

Results

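The genes described here encode the matrix metalloproteases (MMPs), the ADAMTS proteases, the ADAMTS-like proteins and the tissue inhibitors of metalloproteases (TIMPs). They were taken by symbol: every gene whose symbol starts with Mmp, Adamts, Adamtsl or Timp followed by a number, that had a row of the deposited table carrying no other symbol. This gave 47 of the 18820 genes tested, made up of 20 Mmp, 18 Adamts, 5 Adamtsl and 4 Timp genes. A further 4 mouse genes of these families in RefSeq, Adamts2, Mmp15, Mmp27 and Mmp28, had no such row and were not analysed in the main comparison.

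The cells were 3T3-L1, an established clonal mouse line of fibroblast-like cells that turn into fat cells under a hormone mixture. All samples were induced over 2 days with human insulin, dexamethasone and isobutylmethylxanthine, then kept in human insulin, and total RNA was taken on day 7. Throughout this time 3 samples were given 1 µM of a purchased compound that blocks stearoyl-CoA desaturase (SCD), the enzyme that turns saturated into monounsaturated fatty acids, and 4 were given DMSO, its solvent. The labels used here do not name the compound, a single line and a single dose were used, and the labels do not say whether replicates were separate cultures, so p-values measure the spread between these arrays, which may be technical. Each sample was hybridised to 1 Affymetrix whole-transcript array, and levels are log2 values made with RMA, so a difference of 1 is a 2-fold change.

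MMPs are secreted or membrane-bound zinc proteases that are made as inactive precursors and cut collagens, gelatins and many other proteins outside the cell. ADAMTS proteases are secreted relatives that carry thrombospondin repeats, and their known substrates include the large proteoglycans versican and aggrecan and the ends of procollagens. ADAMTS-like proteins share the repeats but have no protease domain. TIMPs bind the active site of these proteases and block it. In fat, the matrix around a cell is remodelled as the cell rounds up and fills with lipid, and the membrane-bound collagenase MMP14 is known to be needed for this in a collagen-rich tissue.

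Array medians lay between 4.88 and 4.94, and across all genes the correlation was 0.9990 to 0.9995 within groups (9 pairs of arrays) and 0.9968 to 0.9975 between them (12 pairs). The cells are labelled pre-adipocytes, while the design of the series speaks of adipocytes. Of 9 measured adipocyte markers none was called in limma (2, Pparg and Plin1, at an unadjusted p under 0.05), and Adipoq read 12.39 in DMSO and 12.44 with the inhibitor, while Lep read 4.83 in both. No detection calls were used, so a value near the lower end of the scale, which ran from 2.23 to 13.2, is not read as absence or presence. Genes are called here when limma's adjusted p fell under 0.05, with Benjamini-Hochberg adjustment over all 18820 genes.

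With the inhibitor, 7 of the 47 genes rose and 1 fell. The genes that rose were the proteases Adamts1, Mmp14, Adamts5, Mmp2, Adamts4 and Adamts12 and the inhibitor Timp2, by 1.31-fold to 1.85-fold. The gene that fell was Mmp11, by 2.41-fold. The 7 that rose are 14.9% of these genes, and over all genes tested 3.62% were called higher and 4.37% lower (8.00% in either direction). These families were chosen with earlier results of these data known, so the shares are a description and not a test of enrichment. The inhibitor values lay wholly above the DMSO values for 9 of the 47 genes and wholly below for 1, against 8.30% and 9.02% of all genes. The median difference was 0.03 over the 47 genes and -0.0037 over all genes tested. All 8 called genes were among the 20 whose mean level lay above the median of all genes, and none of the 27 at or below it was called (4 at an unadjusted p under 0.05); among all genes, 14.9% of those above the median and 1.09% of those at or below it were called. Without both arrays numbered 1, which stand apart from the other arrays of their group on the second principal component, a choice made after seeing the data, 5 rose and 1 fell, against 2.31% and 1.99% of all genes in that setting.

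**Figure D1:**
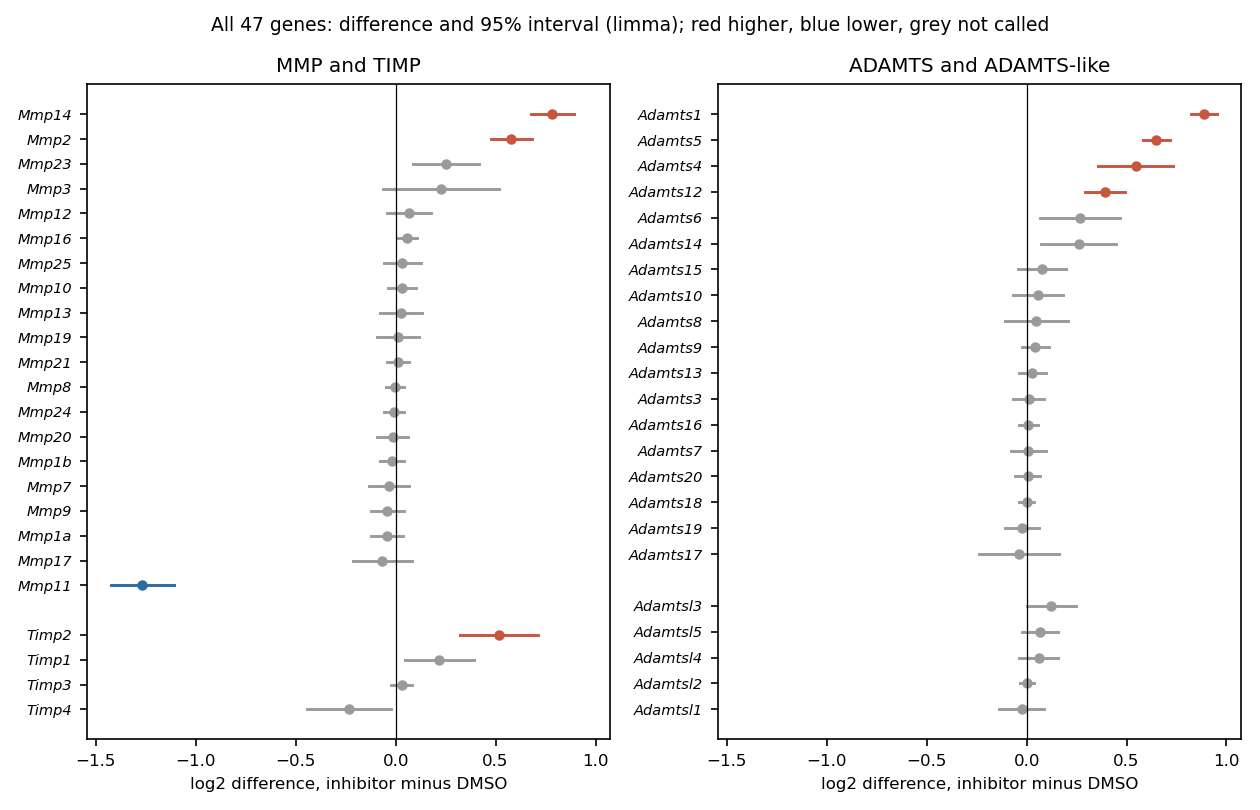
Log2 difference between inhibitor (3 arrays) and DMSO (4 arrays) for each of the 47 genes, with the 95% interval from limma as a bar, sorted by size within each family. Red marks the 7 genes called higher, blue the 1 called lower and grey the 39 not called; Adamts1 at 0.89 and Mmp11 at -1.27 are the ends of the range.

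Among the membrane-type MMPs, which act at the cell surface, Mmp14 rose. Its product cuts fibrillar collagen next to the cell and, held together with TIMP2, activates the precursor of MMP2. Mmp14 read 9.28, 9.28, 9.35 and 9.45 on the DMSO arrays and 10.12, 10.15 and 10.10 on the inhibitor arrays. The groups were far apart, and the inhibitor arrays lay close to each other (SD 0.027). The difference was 0.78 (SE 0.045, 1.72-fold, adjusted p = 1.83e-04 in limma). Of the other membrane-type genes measured, Mmp16, Mmp17, Mmp24 and Mmp25, none was called, with differences from -0.07 to 0.06. Mmp16 was the only one of these at an unadjusted p under 0.05 (difference 0.06, adjusted p = 0.19 in limma), at a level near the lower end of the scale, 3.30 in DMSO.

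Of the gelatinases, which cut denatured collagen and basement membrane, Mmp2 rose and Mmp9 was not called. Mmp2 read 10.76, 10.79, 10.72 and 10.89 in DMSO and 11.32, 11.40 and 11.37 with the inhibitor. All inhibitor values lay above all DMSO values, by more than the spread within either group. The difference was 0.58 (SE 0.043, 1.49-fold, adjusted p = 5.63e-04 in limma). Mmp9, which read 4.23, 4.18, 4.18 and 4.30 in DMSO and 4.16, 4.18 and 4.21 with the inhibitor, overlapped between groups (difference -0.04, 95% interval -0.13 to 0.04).

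The change of Mmp11 ran the other way. Mmp11 encodes stromelysin 3, an MMP that is activated inside the cell by furin-like proteases and so leaves it as an active enzyme. It read 8.63, 8.71, 8.44 and 8.61 in DMSO and 7.30, 7.28 and 7.41 with the inhibitor, so the highest inhibitor array lay 1.03 below the lowest DMSO array. The difference was -1.27 (SE 0.066, adjusted p = 1.35e-04 in limma), and Mmp11 ranked 40 by size among the 823 genes called lower. The other stromelysins, Mmp3 and Mmp10, overlapped between groups (differences 0.23, with a 95% interval of -0.06 to 0.52, and 0.03). Mmp3 read from 3.62 to 3.88 in DMSO and 3.83, 3.75 and 4.22 with the inhibitor, so that inhibitor array 3 stood above the rest.

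The remaining MMPs were not called. Mmp23, an MMP anchored in the membrane, read 6.93, 6.67, 6.76 and 6.92 in DMSO and 7.02, 7.08 and 7.12 with the inhibitor. These groups did not overlap, but the difference of 0.25 (SE 0.069) missed the threshold (adjusted p = 0.0843 in limma), and it passed with each array centred on its median (adjusted p = 0.0353) and with the dimmest 50% of genes dropped (adjusted p = 0.0329). Mmp19, a secreted MMP, averaged 10.71 on the DMSO arrays (SD 0.080) and 10.73 on those with the inhibitor (SD 0.015), which differ by 0.01 with a 95% interval of -0.09 to 0.12 that excludes a change of the size seen for Mmp2.

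**Figure D2:**
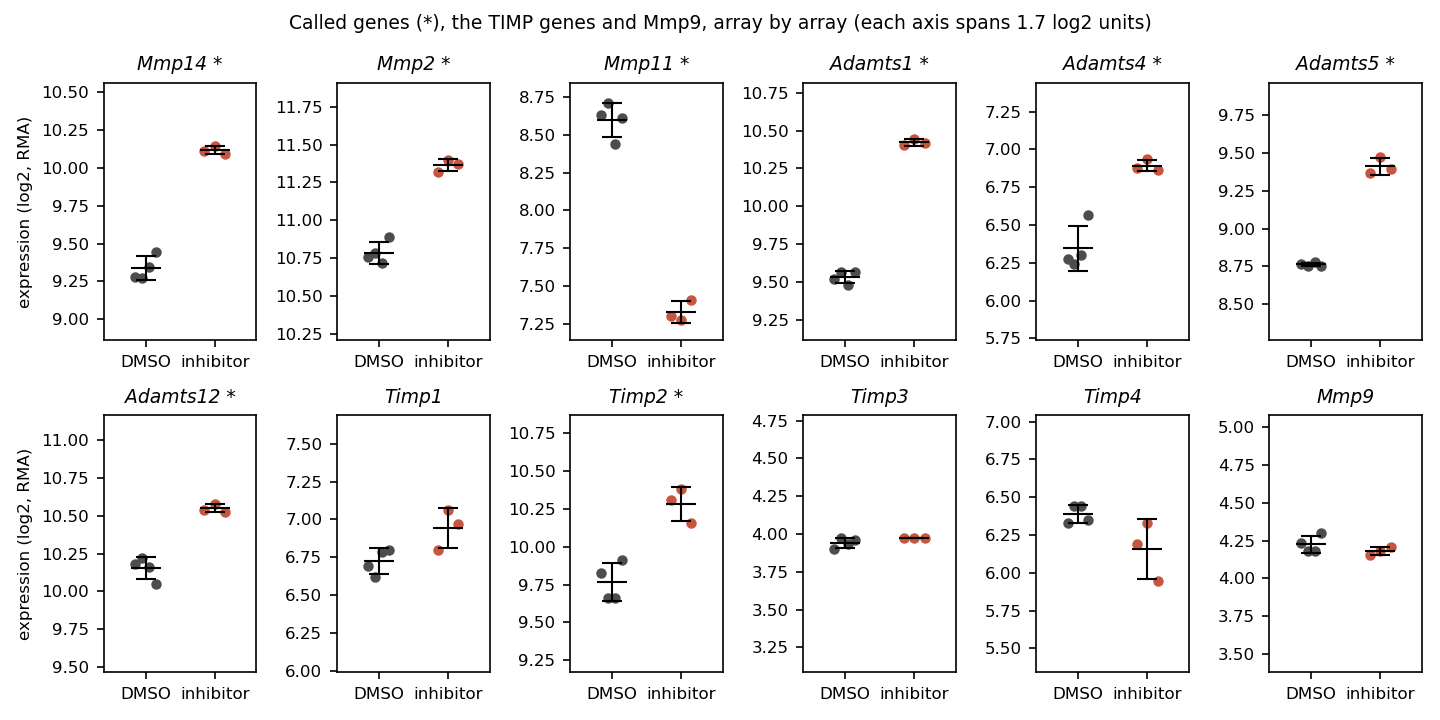
Expression on the log2 scale for the 8 called genes (starred), the other TIMP genes and Mmp9, 1 point per array, with DMSO in grey (n = 4) and inhibitor in red (n = 3); the bars give the mean and SD, and every vertical axis spans 1.7 log2 units. Mmp14, Mmp2, Adamts1, Adamts4, Adamts5, Adamts12 and Timp2 lie higher with the inhibitor and Mmp11 lower, with no overlap between groups, while Timp1, Timp3, Timp4 and Mmp9 overlap.

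Among the 7 ADAMTS proteoglycanases, the group that cuts versican and aggrecan, 3 rose and none fell. Over all genes tested 3.62% were called higher and 4.37% lower, and 6.76% of those above the median level were called higher. Adamts1 read 9.52, 9.57, 9.48 and 9.57 in DMSO and 10.40, 10.45 and 10.42 with the inhibitor. This was the largest increase of the 47 genes, 0.89 (SE 0.027, 1.85-fold, adjusted p = 3.18e-05 in limma), and ranked 10 among the 682 genes called higher. Adamts5, the main aggrecanase of mouse cartilage, read 8.77, 8.76, 8.78 and 8.75 in DMSO and 9.37, 9.47 and 9.39 with the inhibitor. Its increase was 0.65 (SE 0.028, adjusted p = 6.74e-05 in limma), and its 95% interval of 0.58 to 0.72 lay below that of Adamts1, 0.82 to 0.96. In the RefSeq annotation Adamts1 and Adamts5 are direct neighbours among the protein-coding genes of chromosome 16, and both rose.

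Adamts4, another aggrecanase, read 6.28, 6.24, 6.30 and 6.57 in DMSO and 6.88, 6.94 and 6.87 with the inhibitor. DMSO array 4 was higher than the others but still below every inhibitor array. Its increase was 0.55 (SE 0.079, adjusted p = 0.00867 in limma), but leaving out both arrays numbered 1 gave an adjusted p of 0.104. The other proteoglycanases did not pass: Adamts9 had a difference of 0.04, Adamts15 of 0.07, Adamts8 of 0.05 and Adamts20 of 0.01. Adamts8 and Adamts15 are direct neighbours on chromosome 9. Adamts9, at 9.89 in DMSO, has a 95% interval of -0.02 to 0.11, below those of Adamts1, Adamts4 and Adamts5. Adamts9 has 5 other rows on the array, whose differences ran from 0.02 to 0.17, and 1 of them passed when every row was tested on its own (adjusted p = 0.048 in limma).

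Adamts12, which cuts cartilage oligomeric matrix protein, read 10.18, 10.22, 10.16 and 10.05 in DMSO and 10.54, 10.58 and 10.53 with the inhibitor. The groups did not overlap, and the increase of 0.39 (SE 0.042, 1.31-fold, adjusted p = 0.00258 in limma) was the smallest of those called. It stood at an adjusted p of 0.0509 in limma without both arrays numbered 1. Adamts7, which cuts the same protein, had a difference of 0.01 (95% interval -0.08 to 0.10).

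No gene of the other ADAMTS classes was called. Adamts14, which removes the amino-terminal ends of procollagens, read 5.50, 5.36, 5.39 and 5.52 in DMSO and 5.52, 5.78 and 5.81 with the inhibitor. Inhibitor array 1 was level with the highest DMSO array, and the difference of 0.26 (SE 0.079) had an adjusted p of 0.115 in limma. It passed without inhibitor array 1 (adjusted p = 0.0267), with the arrays centred (0.033), after a further quantile normalization (0.0462) and with array weights (0.0454). Adamts3, of the same class, had a difference of 0.01, and its 15 other rows ranged from -0.08 to 0.08.

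Adamts6 read 4.90, 5.23, 5.21 and 5.19 in DMSO and 5.37, 5.45 and 5.39 with the inhibitor, without overlap (difference 0.27, adjusted p = 0.122 in limma). DMSO array 1 stood low, and without it Adamts6 passed with a smaller difference (0.19, adjusted p = 0.016 in limma). Adamts10 and Adamts17, linked to fibrillin microfibrils, had differences of 0.06 and -0.04. The 5 ADAMTS-like genes, several of which bind fibrillin, were not called in limma (1, Adamtsl3, at an unadjusted p under 0.05, with a difference of 0.12), with a median of 0.06 and a range from -0.03 to 0.12. Adamtsl4 and Adamtsl5 were at 5.58 and 6.41 in DMSO with differences of 0.06 and 0.07.

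Of the TIMPs only Timp2 was called. TIMP2 blocks MMPs and is also the partner through which MMP14 captures the MMP2 precursor. Timp2 read 9.83, 9.66, 9.66 and 9.91 in DMSO and 10.31, 10.38 and 10.16 with the inhibitor. The groups did not overlap, but both spread more widely than those of Mmp14 (SD 0.13 and 0.11 against 0.080 and 0.027). The increase was 0.52 (SE 0.081, 1.43-fold, adjusted p = 0.0117 in limma), with an adjusted p of 0.0503 without inhibitor array 1, 0.0521 without inhibitor array 2 and 0.112 without both arrays numbered 1. The 95% intervals of Timp2 (0.32 to 0.71), Mmp14 (0.68 to 0.89) and Mmp2 (0.47 to 0.68) overlap or touch, and differences between the increases of these genes were not tested.

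Timp1, a secreted inhibitor of most soluble MMPs, read 6.69, 6.62, 6.79 and 6.80 in DMSO and 6.80, 7.06 and 6.97 with the inhibitor. Inhibitor array 1 touched the DMSO range, and the difference of 0.22 (SE 0.072) did not pass (adjusted p = 0.14 in limma); it did after a further quantile normalization (0.0475) and with the arrays centred (0.0444). Timp4, the TIMP best known from heart and fat, read 6.33, 6.44, 6.44 and 6.35 in DMSO and 6.19, 6.33 and 5.94 with the inhibitor. It had the only difference below 0 among the TIMPs, -0.23 (SE 0.089, adjusted p = 0.188 in limma), and the groups met at one value. Timp3, which also blocks ADAMTS4 and ADAMTS5, read 3.90, 3.97, 3.93 and 3.96 in DMSO and 3.97 on all 3 inhibitor arrays, near the lower end of the scale. In RefSeq, Timp1, Timp3 and Timp4 each lie inside a synapsin gene (Syn1, Syn3 and Syn2), and the differences of these hosts were -0.12, -0.01 and -0.10, none of them called.

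The remaining 21 genes lay at or below the median level of all genes and were neither called nor below an unadjusted p of 0.05 in limma. Their mean levels ran from 2.80 to 5.35 and their differences from -0.07 to 0.23. They include all 4 collagenases (Mmp1a, Mmp1b, Mmp8 and Mmp13), matrilysin (Mmp7), macrophage metalloelastase (Mmp12), enamelysin (Mmp20) and Adamts13, which cuts von Willebrand factor.

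A stretch of chromosome 9 holds 10 Mmp genes in a row without another protein-coding gene between them: Mmp13, Mmp12, Mmp1b, Mmp3, Mmp1a, Mmp10, Mmp8, Mmp27, Mmp20 and Mmp7. Of these, 9 were measured, at mean levels of 2.80 to 3.84, and none was called in limma (0 at an unadjusted p under 0.05). Their groups overlapped in every case. Of all 9410 genes at or below the median level, 1.09% were called. The inhibitor values lay wholly above the DMSO values for 157 of those genes and wholly below for 200. None of the 8 called genes lies in this stretch.

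**Figure D3:**
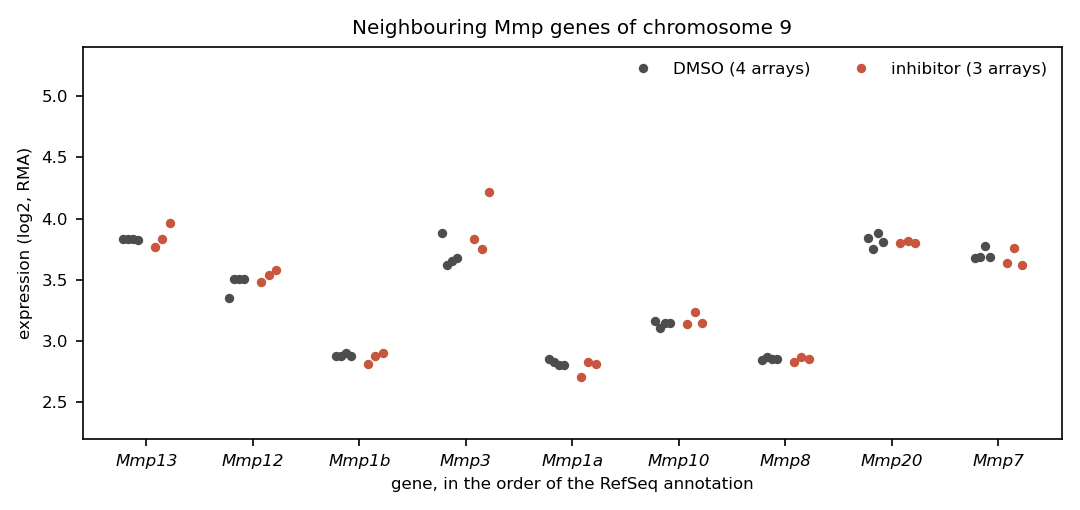
Expression on the log2 scale of the 9 measured Mmp genes that follow each other on chromosome 9, in annotation order, 1 point per array, with DMSO in grey and inhibitor in red. All lie at the low end of the scale and the groups overlap for each gene; levels of different genes are not comparable, since their probes differ.

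Several genes of this stretch are textbook targets of AP-1, the factor made of Fos and Jun proteins. The pattern TGANTCA, with any base at N, is wider than the usual AP-1 site and reads the same on both strands. It was searched in the 250 bases before each start in the RefSeq promoter table (GRCm38.p6), which held 32 of the 47 genes. The forms of the pattern were not counted apart over all promoters. The pattern was found in 8 of the 9 measured genes of the stretch, at 35 to 95 bases before the annotated start. All 9 have an entry, and Mmp27, which was not measured, was not looked up. None of the 23 other genes with an entry held a match. Over the whole table the pattern was found in 2113 of 27025 genes. Counted by promoter, it was in 8 of the 11 entries of the stretch, since the second entries of Mmp12 and Mmp7 had no match, in 6.75% of all 32851 promoters and in 5.90% of those of the genes tested. It was in none of the 5 called genes with an entry. Base composition differs too: the windows of the stretch hold 37.2% to 53.2% G and C, those of the called genes 55.2% to 68.0% and those of the uncalled genes outside the stretch 53.6% (Mmp21, Timp4) to 80.0% (Adamtsl3). The 120 bases before the start are shown for the 8 genes with a match, with the matched letters in capitals. A match is a description of the letters and not a bound site.
Mmp13 (chr9:7272394-7272513, plus strand): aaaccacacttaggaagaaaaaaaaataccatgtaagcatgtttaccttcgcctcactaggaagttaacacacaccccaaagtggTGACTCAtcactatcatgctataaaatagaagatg
Mmp12 (chr9:7347254-7347373, plus strand): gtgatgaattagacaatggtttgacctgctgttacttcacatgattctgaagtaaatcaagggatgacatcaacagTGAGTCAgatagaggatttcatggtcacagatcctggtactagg
Mmp1b (chr9:7388027-7388146, minus strand): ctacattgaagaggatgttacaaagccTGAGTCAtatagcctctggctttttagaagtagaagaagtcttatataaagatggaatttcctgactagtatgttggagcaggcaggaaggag
Mmp3 (chr9:7445702-7445821, plus strand): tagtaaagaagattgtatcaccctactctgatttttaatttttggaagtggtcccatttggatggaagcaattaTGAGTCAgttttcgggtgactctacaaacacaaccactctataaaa
Mmp1a (chr9:7464021-7464140, plus strand): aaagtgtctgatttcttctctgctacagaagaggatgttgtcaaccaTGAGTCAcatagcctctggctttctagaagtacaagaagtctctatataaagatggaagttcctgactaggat
Mmp10 (chr9:7502222-7502341, plus strand): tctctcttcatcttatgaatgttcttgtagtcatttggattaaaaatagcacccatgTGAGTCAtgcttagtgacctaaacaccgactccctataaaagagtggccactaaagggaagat
Mmp20 (chr9:7628111-7628230, plus strand): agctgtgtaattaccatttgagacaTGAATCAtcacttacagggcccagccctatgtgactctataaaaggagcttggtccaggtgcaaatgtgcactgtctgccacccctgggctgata
Mmp7 (chr9:7691970-7692089, plus strand): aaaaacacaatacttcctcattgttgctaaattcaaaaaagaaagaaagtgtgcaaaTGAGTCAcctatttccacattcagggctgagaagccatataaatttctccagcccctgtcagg

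The 7 letters TGAGTCA stand in 6 of these 8 windows, with TGACTCA in Mmp13 and TGAATCA in Mmp20. The same 120 bases are shown for the called genes that the table holds, Mmp14, Adamts1, Adamts12, Timp2 and Mmp11, to set beside them. No letters are in capitals, because the pattern is not in their windows. Mmp2, Adamts4 and Adamts5 have no entry.
Mmp14 (chr14:54431478-54431597, plus strand): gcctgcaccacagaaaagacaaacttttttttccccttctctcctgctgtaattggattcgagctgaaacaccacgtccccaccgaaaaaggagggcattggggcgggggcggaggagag
Adamts1 (chr16:85803114-85803233, minus strand): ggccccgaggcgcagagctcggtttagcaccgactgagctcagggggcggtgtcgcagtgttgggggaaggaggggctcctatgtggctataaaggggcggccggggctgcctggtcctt
Adamts12 (chr15:11064653-11064772, plus strand): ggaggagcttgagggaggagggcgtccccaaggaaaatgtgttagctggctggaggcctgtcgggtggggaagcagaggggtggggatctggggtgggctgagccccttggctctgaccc
Timp2 (chr11:118355412-118355531, minus strand): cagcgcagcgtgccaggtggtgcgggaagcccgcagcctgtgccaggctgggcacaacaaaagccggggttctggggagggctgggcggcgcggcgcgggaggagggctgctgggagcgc
Mmp11 (chr10:75932503-75932622, minus strand): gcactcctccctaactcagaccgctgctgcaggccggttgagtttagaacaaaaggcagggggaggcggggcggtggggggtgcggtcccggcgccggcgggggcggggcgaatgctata

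Genes that work with these proteases were read from the same fit. Over 5 companion lists, 16 of 76 measured genes rose and 4 fell, with a median of 0.06, beside 3.62% and 4.37% of all genes. Without both arrays numbered 1 the counts were 10 and 2, beside 2.31% and 1.99% of all genes. Of all genes above the median level, 6.76% were called higher and 14.9% in either direction in the main setting. The companion lists, and the marker lists below, were chosen with earlier results of these data known. Their counts beside the shares of all genes are therefore a description and not a test of enrichment. Among 18 substrates, 7 rose and 1 fell, with a median of 0.08. Vcan, which encodes versican, the substrate shared by ADAMTS1, ADAMTS4 and ADAMTS5, rose from 9.82 ± 0.13 (SD, n = 4) to 10.52 ± 0.030 (SD, n = 3), a 1.62-fold increase (adjusted p = 0.00224 in limma). Acan, the aggrecan gene, had a difference of 0.05 at a level of 3.47 in DMSO. The interstitial collagens Col3a1 and Col1a1, substrates of MMP14, rose by 0.50 and 0.41, and decorin (Dcn), a small proteoglycan of collagen fibrils, by 0.59, with an adjusted p of 0.0519 in limma for Dcn without both arrays numbered 1. The substrate that fell was fibronectin (Fn1), from 11.34 to 11.08, named after its value was seen, with an adjusted p of 0.0807 in limma without both arrays numbered 1.

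Beside 3.62% of all genes called higher and 4.37% lower, 3 of 19 other metzincins, the wider family of zinc proteases, rose and none fell. They were Pappa, which frees insulin-like growth factors from a binding protein (difference 0.61, SE 0.075, adjusted p = 0.00462 in limma), Bmp1, which removes the carboxy-terminal ends of procollagens (0.38, SE 0.048, adjusted p = 0.00512), and Adam23 (0.18, SE 0.029, adjusted p = 0.0126). Pappa was at an adjusted p of 0.064 in limma without both arrays numbered 1. Adam23 was at 0.0565 without inhibitor array 3 and at 0.0985 with the replicate number as a block. Pcolce, which enhances the action of BMP1, rose by 0.47, and the thrombospondins Thbs1 and Thbs2 by 0.60 and 0.47. THBS2 is known to carry MMP2 to the endocytic receptor LRP1, whose gene was not called (0.18, adjusted p = 0.119). Pcolce, Thbs1 and Thbs2 were the 3 called genes among 14 measured other protease inhibitors and matrix modifiers, where the median was 0.03. Reck, a membrane-anchored MMP inhibitor, had a difference of 0.26 with an adjusted p of 0.0517 in limma.

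Among 11 activators and cofactors, beside 8.00% of all genes called, only Plat, which encodes tissue plasminogen activator, passed (0.33, adjusted p = 0.0316 in limma). Its adjusted p was between 0.0628 and 0.102 without any 1 of DMSO arrays 1 to 4 or inhibitor arrays 2 and 3. Furin, whose product activates precursors of MMP14 and MMP11, had a difference of 0.07 and was not called (unadjusted p = 0.046, adjusted p = 0.218 in limma). Lrp1 (0.18), Mrc2 (0.08, without overlap between groups) and Bsg (-0.12) were also uncalled at an unadjusted p under 0.05. Of 14 transcription factors known to act on protease genes, 2 rose and 3 fell, beside 3.62% and 4.37% of all genes. Runx1 fell by 0.74, Ets2 by 0.44 and Etv5 by 0.29, and Jun, a part of AP-1, rose by 0.19. The other Fos and Jun genes measured were not called. Junb had a difference of 0.24 (adjusted p = 0.0536 in limma) and Fos of 0.20 (adjusted p = 0.11), both without overlap between groups. Jund had one of 0.10, Fosb of 0.07 and Fosl2 of -0.02. Without both arrays numbered 1 the adjusted p of Runx1 was 0.0584. The call of Etv5 ended without any 1 of DMSO arrays 2, 3 and 4 and inhibitor arrays 1 and 3 (adjusted p 0.0845 to 0.102 in limma). That of Jun ended without any 1 of DMSO arrays 2, 3 and 4 and inhibitor arrays 1, 2 and 3 (0.0637 to 0.0871). The other factor that rose, Rela, named after its value was seen, was called at a difference of 0.14 and lost that call in 10 alternatives, with adjusted p of 0.0752 to 0.142 without any 1 of the same 6 arrays.

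**Figure D4:**
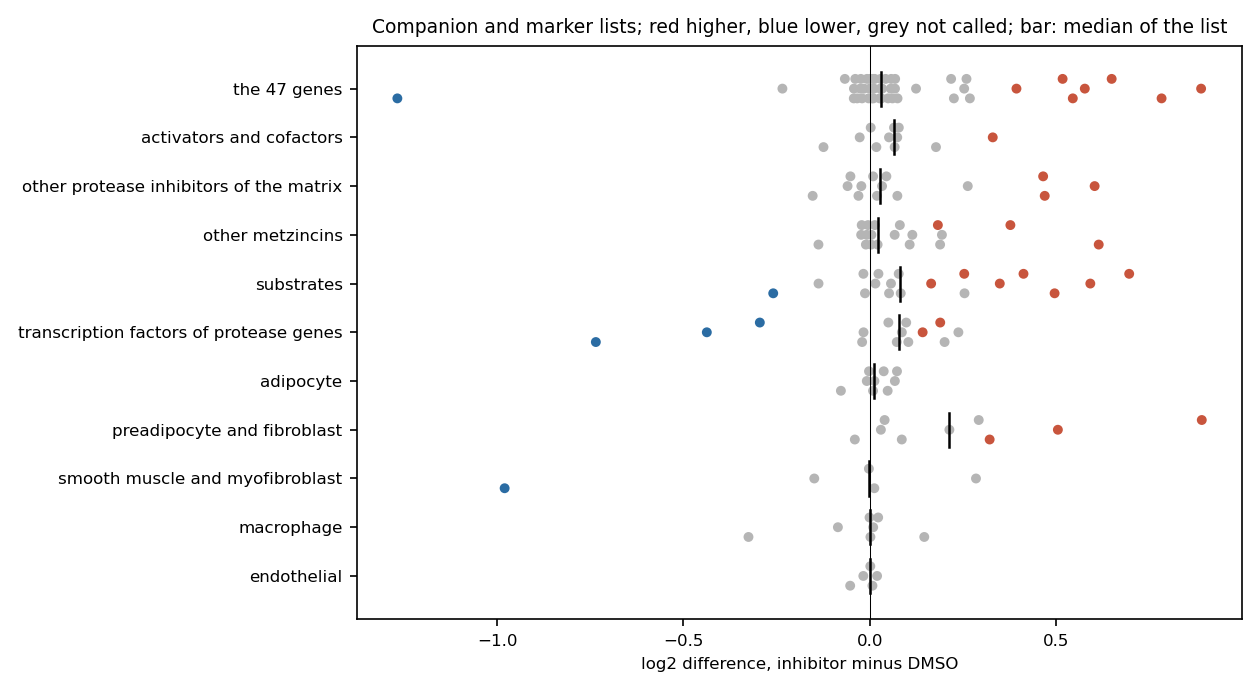
Log2 difference between inhibitor and DMSO for the 47 genes, the genes of the 5 companion lists and 5 lists of cell type markers, 1 point per gene, with the median of each list as a black bar. Red points were called higher and blue points lower in limma; the substrates hold 7 red points and 1 blue, and the pre-adipocyte and fibroblast markers 3 red points with a median of 0.21.

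Of 9 measured pre-adipocyte and fibroblast markers 3 rose, none fell and 6 were not called, beside 3.62% of all genes called higher and 4.37% lower. Those that rose were Pdgfra, a growth factor receptor of adipocyte precursors, by 0.89, Pdgfrb by 0.51 and Dlk1, an inhibitor of fat cell formation, by 0.32. Of the uncalled markers 3 were at an unadjusted p under 0.05 in limma, Thy1 (difference 0.29), Pi16 (0.21) and Vim (0.09). The groups did not overlap for Pi16 and Vim. Only Dpp4 had a difference below 0 (-0.04). The call of Pdgfra held in all 17 alternatives, that of Pdgfrb was lost when both arrays numbered 1 were left out (adjusted p = 0.0906 in limma). That of Dlk1 was lost in 9, among them leaving out any 1 of DMSO arrays 2, 3 and 4 and of inhibitor arrays 1, 2 and 3 (adjusted p 0.0826 to 0.129). The summed level of this list was 12.86 to 12.95 on the DMSO arrays and 13.12 to 13.14 on the inhibitor arrays (log2 of the sum). Vim, with the highest level of the list (12.21 in DMSO and 12.29 with the inhibitor), weighs most in this sum, and Cd34 and Dpp4 were near the lower end of the scale in both groups. The summed level of the adipocyte list was 15.17 to 15.18 and 15.16 to 15.22. The genes that weigh most in that sum, among them Lpl (12.71 in DMSO) and Cidec (12.63), lie near the top of the scale, where RMA can compress changes. In such bulk RNA, a change in the number of cells of a kind and a change in RNA per cell cannot be told apart, and the part of the pre-adipocyte markers in the protease increases was not tested. Of 5 smooth muscle and myofibroblast markers only Des was called, and it fell by 0.98, while the median of the list was -0.0022. Myh11 had a difference of 0.29 without overlap between groups (adjusted p = 0.0845 in limma), Acta2 of -0.15, Cnn1 of 0.01 and Tagln of -0.0022. The summed level of these markers, Des included, was 10.13 to 10.21 in DMSO and 9.65 to 9.73 with the inhibitor. None of 7 macrophage and 5 endothelial markers was called in limma (1, Lyz2, at an unadjusted p under 0.05). Adgre1 and Cdh5, which define macrophages and endothelial cells, read 3.11 and 3.91 in DMSO, and the summed levels were 7.47 to 7.55 against 7.38 to 7.46 for macrophages and 6.31 to 6.45 against 6.33 to 6.37 for endothelium.

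Of the 8 called genes, 5 kept their call in all 17 alternative settings, namely Adamts1, Adamts5, Mmp11, Mmp14 and Mmp2. Adamts4 and Adamts12 kept it in 16 of them and lost it without both arrays numbered 1, and Timp2 lost it in the 3 settings given above. The largest adjusted p over all settings was 0.00909 for Adamts1 and 0.0238 for Mmp2.

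**Figure D5:**
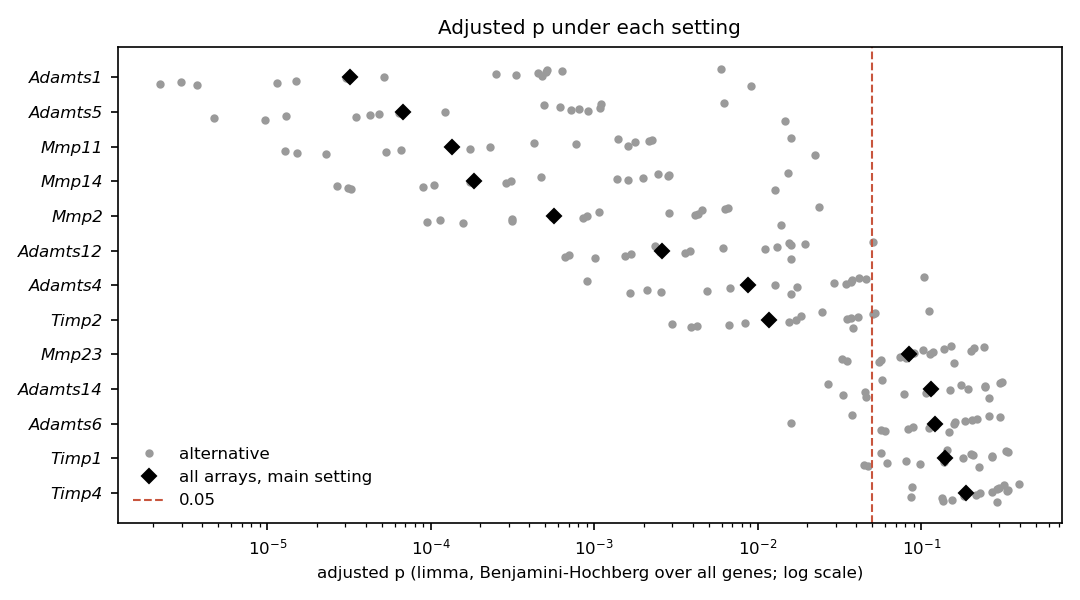
Adjusted p in limma, on a log axis, of the 8 called genes and of Mmp23, Adamts14, Adamts6, Timp1 and Timp4, with all 7 arrays in the main setting as a black diamond and each alternative as a grey point; the dashed line marks 0.05. For Adamts1, Adamts5, Mmp11, Mmp14 and Mmp2 every point lies left of the line, and Timp4 lies right of it under every setting.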

How the data were processed

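Transcript levels of 7 arrays were used, 4 DMSO and 3 SCD inhibitor. The deposited values are on the log2 scale and were made by the authors with RMA, which corrects background, normalizes across arrays and summarises probes, per the submitters' processing notes. The RMA version, the annotation and filters applied were not given in the sources used here. RMA can compress changes at both ends of the scale, and the number of arrays limits the precision (median SE of a difference 0.039).

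Of 28996 rows, 21218 carried 1 gene symbol in the platform annotation. Per gene the row with the highest mean over all arrays was kept, leaving 18820 genes, without a filter on dim genes. All 7 arrays entered 1 model with a term for the inhibitor (limma 3.58.1, lmFit and eBayes, R 4.3.3), with Benjamini-Hochberg adjustment over all genes and calls at an adjusted p under 0.05. The fit was tested on simulated data. Members with a called difference and all TIMPs are given array by array. Uncalled members at an unadjusted p under 0.05 or above the median level are named, and companion lists are shown by up to 4 called genes each. The members and all lists were chosen with earlier results of these data known. Alternatives comprised a block for the replicate number, other normalizations, filters, variance models and row choices, and leaving out arrays.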

Additional observations from a re-analysis of the deposited data

Results flagged for a closer look

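Among the 4 DMSO arrays, 1 array stood apart from the other 3 for 13 of the 46 genes that could be tested, by the gap to the nearest other array over the whole range (Dixon's 95% critical value). Chance flags about 1 gene in 20 where no values are tied, and the share of flags over all genes was not counted. None of the 13 was called. DMSO array 1 was the one apart in 7 of them: it was lowest for Adamts6 (4.90, the others at 5.19 to 5.23), Adamts13 (4.18) and Mmp12 (3.35), and highest for Adamts16 (3.86), Adamtsl1 (4.67), Mmp17 (4.16) and Mmp24 (5.35). DMSO array 2 was lowest for Adamtsl4 (5.47) and Adamtsl5 (6.32). DMSO array 3 was lowest for Adamts10 (6.94) and Adamts7 (6.30) and highest for Mmp7 (3.77), and DMSO array 4 was lowest for Mmp13 (3.82). For 8 of the 47 genes, and for 20.1% of all genes, at least 3 DMSO arrays hold exactly the same value, which makes a small step stand out. Among the flagged genes these are Adamts7, Adamts13, Adamts16, Adamtsl4, Mmp12, Mmp13 and Mmp17, where a step of any size is flagged, so the chance rate does not hold for them. None of the 8 called genes had such equal values.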

How the results depend on the processing

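Over the 17 alternatives the number of these genes called higher ran from 5 to 10 against 7. The share of all genes called higher was 3.62% in the main setting, 5.94% with 10 called (arrays centred), 1.96% with 6 (without SCD inhibitor 2), 2.31% with 5 (without both arrays numbered 1) and 10.1% with 8 (dimmest 50% dropped). Mmp11 was the 1 called lower in each of the 17. Of 136 values of the 8 called genes, 131 kept call and direction, 5 lost the call and none changed sign. Of 298 values of the named uncalled genes, 10 gained a call and 7 changed sign: Adamts17 to 0.0420 without SCD inhibitor 1 and 0.0423 without both arrays numbered 1, Adamts7 to -0.0013 without DMSO 3 and -0.0286 without SCD inhibitor 2, Adamts8 to -0.0081 with the replicate block and -0.0081 without DMSO 4, and Mmp19 to -0.0156 without DMSO 2. With each array left out in turn these ranged from -0.147 to 0.0420 for Adamts17, -0.0286 to 0.0466 for Adamts7, -0.0081 to 0.0902 for Adamts8 and -0.0156 to 0.0488 for Mmp19. With the replicate number as a block, 7 of these genes were higher and 1 lower, while over all genes 896 were called against 1505. No inhibitor array is numbered 4, so DMSO array 4 adds nothing to the block's differences, which equal those without that array. The sign change of Adamts8 in these settings is therefore the same estimate. The block also uses up degrees of freedom, and 980 genes were called without DMSO 4. Among arrays 1 to 3 of each group, same-numbered arrays shared deviations at r = 0.174, 0.138 and 0.0796. Pairs with unlike numbers had r from -0.171 to -0.0076, and DMSO array 4 was not compared. Deviations from a group mean cancel out within the group, so a positive r for one pair goes with negative ones elsewhere. The pairing is a hint from the data and not the design. The companion lists had 10 higher and 2 lower genes with the block and likewise 10 and 2 without both arrays numbered 1, against 16 and 4; the cause was not tested. Among the named companion genes the block ended the calls of Plat (adjusted p = 0.122 in limma), Adam23 (0.0985), Ets2 (0.072), Jun (0.0657), Etv5 (0.0547) and Rela (0.0802), and of the marker Dlk1 (0.113). Centring the arrays moved the median of all genes by 0.013. Signal over background was not given, so no limit is set for the dim genes.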

Other observations

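2 rows of the table carry a symbol of these families together with another gene and were outside the main comparison. The row of Mmp28 and 1700020L24Rik fell from 8.80 ± 0.012 (SD, n = 4) to 7.85 ± 0.024 (SD, n = 3) under the inhibitor (log2 difference -0.96, SE 0.018, adjusted p = 1.03e-05 in limma over all 28996 rows). Its probes do not tell the genes apart, so the change cannot be given to Mmp28, which encodes epilysin, a secreted MMP. The row of Mmp24 and BC029722 had a difference of 0.05 (adjusted p = 0.457), and the row of Mmp24 alone one of -0.0073.

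Of the 5 genes with more than 1 row, Adamts8, Adamts17, Adamtsl1 and Adamts3 had no called row, with other rows between -0.08 and 0.14.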
